A study of Mus musculus with 10 samples.

Results

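The 10 genes described here encode small leucine-rich proteoglycans (SLRPs) and matricellular proteins of the extracellular matrix. They were taken by name from the table of 56748 genes. The SLRPs are decorin (Dcn), lumican (Lum), biglycan (Bgn), fibromodulin (Fmod), osteoglycin (Ogn) and asporin (Aspn), and the other 4 genes are periostin (Postn), the thrombospondins Thbs1 and Thbs2, and fibronectin (Fn1), the cell-adhesive glycoprotein that many of them bind. All 10 were among the 14270 genes with enough counts to be tested. RNA-seq was done on primary adipocytes that had been differentiated in culture from the stromal vascular fraction (SVF) of inguinal fat, with 5 control and 5 KO libraries. Control cultures came from Fam20c-flox mice and KO cultures from Fam20c-flox/Adipoq-Cre mice, so both groups carried the floxed allele of Fam20c, a kinase of the secretory pathway, and only KO cells carried Cre. The donors were male mice aged 6 to 8 weeks and the cells were differentiated for 6 to 8 days. Adipoq-Cre is driven by the adiponectin promoter, which is active in differentiated adipocytes, so cells of the culture that did not become adipocytes keep the gene. The labels do not say whether the libraries of a group came from separate animals or cultures. The p-values therefore set each group difference against the spread between these libraries, which may be partly technical.

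SLRPs are secreted proteins with a core of leucine-rich repeats, and most carry glycosaminoglycan chains. Several bind fibrillar collagen and control how collagen fibrils grow in width and how they are spaced, and decorin and biglycan also bind growth factors such as TGF-beta. Matricellular proteins sit in the matrix without being its main structural parts and signal to cells through integrins, CD36, CD47 and other receptors. In fat, these proteins are made mostly by fibroblasts and adipocyte progenitors, and the matrix around adipocytes is remodelled as fat tissue expands.

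Promoter sequences are shown for Ogn and Postn, which differed between the groups, for Aspn, which lies next to Ogn, and for Bgn, which had the highest level per length. Each line gives the 250 bases before a transcription start in the RefSeq annotation of GRCm38.p6, 5′ to 3′ on the plus strand, on which all of these genes lie. RefSeq windows were found for 6 of the 10 genes, and the promoters of Dcn, Lum, Thbs1 and Fn1 were not analysed here. Capitals mark exact matches on either strand to the 6 short motifs searched.
Ogn, chr13:49607765-49608014: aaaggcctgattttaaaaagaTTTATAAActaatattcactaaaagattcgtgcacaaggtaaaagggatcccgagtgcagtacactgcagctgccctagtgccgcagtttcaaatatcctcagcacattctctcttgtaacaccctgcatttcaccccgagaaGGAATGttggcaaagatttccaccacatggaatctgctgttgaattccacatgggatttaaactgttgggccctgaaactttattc
Aspn, chr13:49544193-49544442: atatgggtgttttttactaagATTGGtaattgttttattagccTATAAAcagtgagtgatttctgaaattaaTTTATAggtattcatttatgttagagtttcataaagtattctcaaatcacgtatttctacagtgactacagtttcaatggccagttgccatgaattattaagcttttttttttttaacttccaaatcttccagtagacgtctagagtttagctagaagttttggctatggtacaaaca
Postn, chr3:54360857-54361106: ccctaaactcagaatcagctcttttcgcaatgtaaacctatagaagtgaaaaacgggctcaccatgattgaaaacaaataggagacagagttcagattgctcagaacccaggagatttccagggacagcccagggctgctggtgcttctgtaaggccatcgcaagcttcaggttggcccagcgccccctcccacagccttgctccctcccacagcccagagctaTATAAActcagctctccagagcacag
Bgn, chrX:73483351-73483600: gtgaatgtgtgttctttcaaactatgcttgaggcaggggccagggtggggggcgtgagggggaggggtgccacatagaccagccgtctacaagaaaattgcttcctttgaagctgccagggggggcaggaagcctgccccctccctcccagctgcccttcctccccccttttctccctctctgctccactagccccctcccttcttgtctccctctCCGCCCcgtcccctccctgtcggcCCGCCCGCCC
The motifs were the TATA box (TATAAA), the CCAAT box (CCAAT), the AP-1 site (TGACTCA), the TEAD site (GGAATG), the SMAD element (GTCTAGAC) and the GC box (GGGCGG). In the Postn window shown, TATAAA began 26 bases before the start. RefSeq has another Postn start further upstream, whose window of 300 bases (chr3:54359017-54359316, not shown) held no TATAAA and a minus-strand CCAAT at base 25 after the start. In Ogn it was read on both strands in overlapping matches that began 229 and 227 bases before the start, and GGAATG lay 86 bases before it. Aspn held TATAAA on the plus strand at 207 bases and on the minus strand at 178 bases before the start, with CCAAT on the minus strand at 229 bases. Bgn held no TATAAA and had 3 GC boxes on the minus strand, at 34, 10 and 6 bases before the start, of which the latter pair overlap. Among 32851 RefSeq windows of 300 bases, 13.6% held the TATA box, 37.4% the CCAAT box, 5.2% the AP-1 site, 14.7% the TEAD site, 0.213% the SMAD element and 35.7% the GC box. The AP-1 site and the SMAD element did not occur in the windows of these 6 genes. A match is a run of letters and not a measured binding site.

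Libraries held 18949106 to 26237825 counts in controls and 19883101 to 23291792 in KO. Fam20c was lower in every KO library than in every control library, at 6.65 to 7.74 against 8.86 to 11.9 TMM-normalized CPM (each count relative to the size of its library), with a log2 fold change of -0.49 ± 0.0929 (SE). Its adjusted p was 0.0137 (edgeR's quasi-likelihood test, adjusted by Benjamini-Hochberg over all genes tested, as in every adjusted p given here). The count covers the whole gene, so remaining counts do not separate intact from recombined transcripts. On the first principal component of all genes tested, which held 23.5% of the variance, control 4 lay at 21.7 and KO 1 at 24.2. The other controls lay between -14.8 and -11.5 and the other KO libraries between -4.12 and 8.59. On the second component, with 20.5% of the variance, the controls lay between 3.37 and 19.3 and the KO libraries between -18.7 and 3.32. Results without control 4 and KO 1 are given below for some genes and counts. Both stood apart on the first component of these same data, so the results without them are not an independent check. Control 4 was the lowest control for Lum and Ogn, and KO 1 the highest KO library for Aspn and Postn. Leaving out that library moved the fold change of those genes away from 0. Of all genes tested, 265 were lower in KO at an adjusted p under 0.05, which is 1.86%, and 44 were higher, which is 0.308%.

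The question was whether these matrix genes differ between Ad-Fam20c-KO and control adipocyte cultures. Lum, Ogn and Postn were lower in KO at an adjusted p under 0.05 (edgeR), which is 3 of the 10 genes beside 1.86% of all genes tested, and none was higher beside 0.308%. Of the 3, Lum alone was called when control 1, 3 or 5 or KO 2 or 5 was left out. By an unadjusted p under 0.05, 4 of the 10 were lower, Aspn being the fourth, beside 7.46% of all genes tested, and 0 were higher beside 4.43%. DESeq2 and limma voom also called 0 higher at an adjusted p under 0.05. Every KO library lay below every control library for 1 gene, Lum, where 2.66% of all genes tested showed this, and for none did every KO library lie above every control library, where 1.31% of all genes did. The log2 fold change was below 0 for 9 of the 10 genes, and 50.3% of all genes tested were below 0. The median log2 fold change was -0.22 over the 10 genes, -0.29 over the 6 SLRPs and -0.17 over the other 4, beside -0.00 over all genes tested. In a bulk culture, fewer cells of a type and less RNA per cell cannot be told apart.

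**Figure D1:**
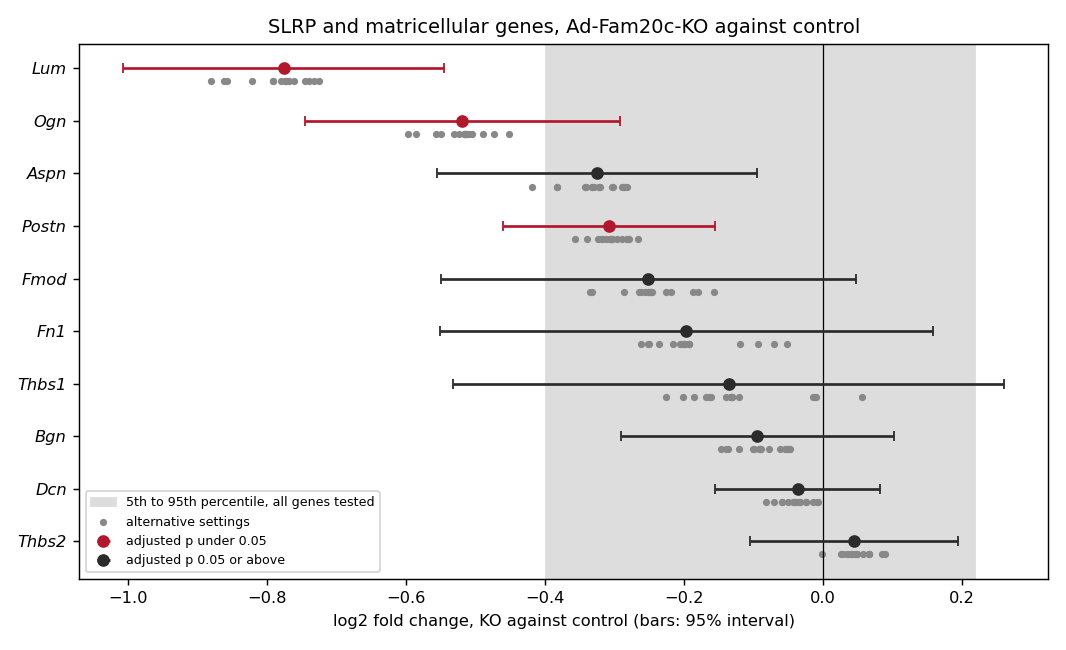
Log2 fold change of each gene in KO against control (x axis, large points with 95% intervals; red marks an adjusted p under 0.05), with the values under each alternative setting as small grey points and the 5th to 95th percentile of all genes tested, -0.40 to 0.22, as a grey band. Lum and Ogn lie outside the band and Postn inside it, and Thbs2 is the gene above 0.

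Lum encodes lumican, a keratan sulfate proteoglycan that binds collagen fibrils. It lies on chromosome 10 at 97565128 to 97572703 on the plus strand (GENCODE M21, GRCm38), 46985 bases beyond Dcn. In controls Lum stood at 45.8, 42.5, 44.0, 30.4 and 41.6 CPM in libraries 1 to 5, and in KO at 25.2, 20.9, 26.9, 24.9 and 21.4 CPM. Control 4 was far below the other controls but still above the highest KO library, KO 3. The mean fell from 40.8 ± 6.07 to 23.9 ± 2.60 CPM (SD, n = 5 each), a log2 fold change of -0.78 ± 0.106 (SE) with a 95% interval of -1.01 to -0.54 and an adjusted p of 0.00154 by edgeR's quasi-likelihood test. This is 41.6% less in KO, from 420 to 1133 counts per library. A 2-sided exact permutation test of the CPM gave p = 0.00794, the smallest that 5 libraries against 5 allow. Without control 4 and KO 1 the log2 fold change was -0.88 (adjusted p = 7.31e-05, edgeR), and Lum stayed past the limit under all 17 alternatives.

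Dcn, the dermatan or chondroitin sulfate proteoglycan that lies next to Lum on the same strand (chromosome 10, 97479609 to 97518143), did not follow it. In controls Dcn stood at 818.1, 798.4, 853.0, 809.0 and 879.2 CPM, and in KO at 893.4, 760.2, 791.3, 861.8 and 748.2 CPM. The groups overlapped, and KO held both the highest and the lowest library. Means were 831.5 ± 33.6 and 811.0 ± 63.8 CPM (SD, n = 5 each), with a log2 fold change of -0.04 and a 95% interval of -0.15 to 0.08 (adjusted p = 0.889, edgeR). Within a library, the log2 ratio of Lum to Dcn ran from -4.74 to -4.16 in controls and from -5.18 to -4.88 in KO. These ranges do not overlap, and the mean ratio was lower by 0.73 on the log2 scale, from -4.36 ± 0.227 to -5.09 ± 0.123 (SD, n = 5 each). The ratio was 1 of 5 compared, all picked after the values were seen, so its 2-sided exact permutation p of 0.00794 (0.0397 adjusted over the 5) is not independent of that choice. Kera and Epyc, the SLRP genes beyond Lum in the same cluster, had 0 counts and 0 to 2 counts per library.

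Ogn encodes osteoglycin, also called mimecan, and lies on chromosome 13 at 49608046 to 49624501 on the plus strand, with its upstream sequence printed above. In controls it stood at 53.6, 53.5, 62.1, 40.3 and 54.2 CPM, and in KO at 32.4, 34.5, 38.3, 43.5 and 35.4 CPM. Control 4 was again the lowest control, and KO 4 lay above it, so that 4 of the 5 KO libraries were below every control. The mean fell from 52.7 ± 7.82 to 36.8 ± 4.31 CPM (SD, n = 5 each), or by 30.2%. The log2 fold change was -0.52 ± 0.105 (SE; 95% interval -0.75 to -0.29) with an adjusted p of 0.0200 by edgeR's quasi-likelihood test, and the exact permutation p was 0.0159. Without control 4 and KO 1 the log2 fold change was -0.56 with an adjusted p of 0.00158 (edgeR). The call was lost when control 1, control 3, control 5, KO 2 or KO 5 was left out alone, at adjusted p-values of 0.0527 to 0.0701 (edgeR) and log2 fold changes of -0.51 to -0.45.

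Aspn encodes asporin, an SLRP with an aspartate-rich end that carries no glycosaminoglycan chain, and lies 40481 bases before Ogn on the same strand (chromosome 13, 49544443 to 49567565). Controls stood at 18.1, 14.4, 18.0, 18.8 and 16.2 CPM and KO at 17.2, 12.3, 12.4, 14.2 and 12.1 CPM. KO 1 lay among the controls, and the other 4 KO libraries were below every control. The log2 fold change was -0.32 ± 0.106 (SE; 95% interval -0.56 to -0.09), at means of 17.1 ± 1.78 and 13.6 ± 2.17 CPM (SD, n = 5 each), and the adjusted p of 0.189 (edgeR) missed the limit. It passed when KO 1 was left out, at -0.42 with an adjusted p of 0.0272 (edgeR), and when control 4 was left out as well, at -0.38 with an adjusted p of 0.0335 (edgeR). Within a library the log2 ratio of Ogn to Aspn was 1.62 ± 0.310 in controls and 1.44 ± 0.300 in KO (SD, n = 5 each), with overlapping ranges (exact permutation p = 0.405, 0.506 adjusted over the 5 ratios). Omd, the SLRP gene that lies between Aspn and Ogn, was low at 1.72 ± 0.563 and 1.16 ± 0.346 CPM (log2 fold change -0.55, adjusted p = 0.409, edgeR). Ecm2, on the other side of Aspn, was at 1.63 ± 0.163 and 1.51 ± 0.194 CPM (-0.10, adjusted p = 0.904, edgeR).

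Bgn encodes biglycan, the X-linked relative of decorin that carries chondroitin or dermatan sulfate chains (chromosome X, 73483602 to 73495933). It stood at 1158.6, 1120.3, 1467.4, 1460.6 and 1375.8 CPM in controls and at 1395.8, 1144.5, 1081.7, 1325.6 and 1219.6 CPM in KO. The groups overlapped over most of their range, with a log2 fold change of -0.09 and a 95% interval of -0.29 to 0.10 (adjusted p = 0.787, edgeR). Fmod encodes fibromodulin, a keratan sulfate proteoglycan that binds collagen as lumican does (chromosome 1, 134037254 to 134048277), and was the lowest of the 10. It stood at 10.5, 9.07, 12.7, 14.0 and 12.6 CPM in controls and at 12.2, 9.92, 7.33, 9.90 and 10.2 CPM in KO. These groups also overlapped, and the log2 fold change of -0.25 had a 95% interval of -0.55 to 0.05 (adjusted p = 0.528, edgeR), on 168 to 297 counts per library. That interval still includes a fall as large as that of Ogn.

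**Figure D2:**
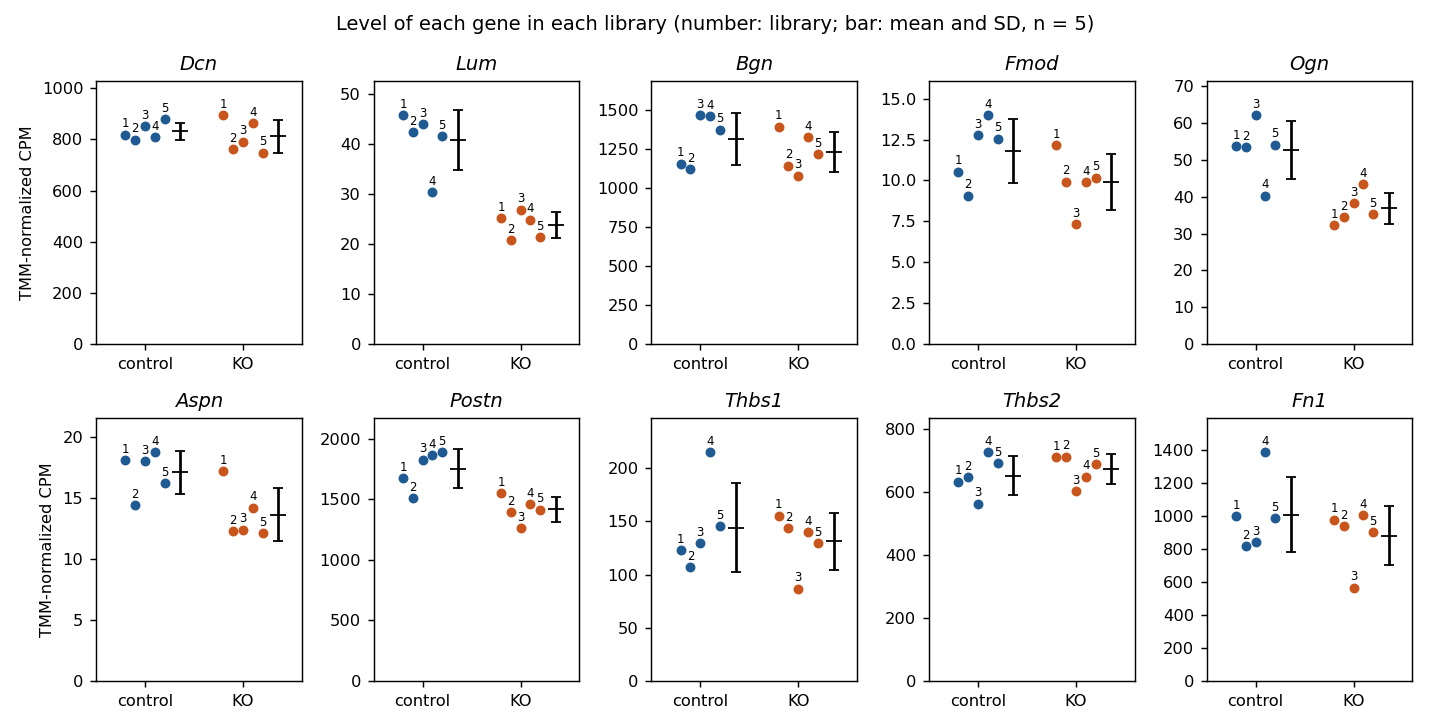
TMM-normalized CPM (y axis, each panel on its own scale from 0) of each gene in each of the 5 control and 5 KO libraries, numbered, with the mean and SD of each group as a bar. All KO points lie below all control points for Lum, and 4 of 5 do for Ogn, Aspn and Postn. Control 4 is the highest library for Fmod, Aspn, Thbs1, Thbs2 and Fn1.

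Among the matricellular genes, Postn was lower in KO. Periostin binds collagen and fibronectin and helps to cross-link collagen (chromosome 3, 54361109 to 54391037). Postn stood at 1676.6, 1506.2, 1826.8, 1865.9 and 1888.6 CPM in controls and at 1552.5, 1395.3, 1263.6, 1456.5 and 1413.2 CPM in KO. KO 1 lay above control 2, and the other 4 KO libraries were below every control. The mean fell by 19.2%, from 1752.8 ± 160.7 to 1416.3 ± 104.8 CPM (SD, n = 5 each), a log2 fold change of -0.31 ± 0.0700 (SE; 95% interval -0.46 to -0.16) with an adjusted p of 0.0396 by edgeR's quasi-likelihood test, and the exact permutation p was 0.0159. Without control 4 and KO 1 the log2 fold change was -0.32 with an adjusted p of 0.0280 (edgeR). The call held when control 2 or KO 1 was left out alone and was lost when control 1, 3, 4 or 5 or KO 2, 3, 4 or 5 was, at log2 fold changes of -0.32 to -0.27 and adjusted p-values of 0.0590 to 0.118 (edgeR).

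Thbs1 and Thbs2 encode thrombospondins, which bind CD36, CD47 and integrins and restrain blood vessel growth, and thrombospondin 1 also activates latent TGF-beta. Thbs1 (chromosome 2, 118111876 to 118127133) stood at 123.3, 107.3, 129.4, 215.2 and 145.4 CPM in controls and at 155.5, 143.9, 86.8, 140.3 and 129.6 CPM in KO. The single high value was control 4 and the lowest was KO 3. The log2 fold change was -0.14 (95% interval -0.53 to 0.26, adjusted p = 0.871, edgeR). It was 0.06 without control 4 and -0.01 without both control 4 and KO 1. Thbs2 (chromosome 17, 14665500 to 14694235, minus strand) stood at 634.2, 648.9, 563.6, 727.9 and 691.9 CPM in controls and at 712.5, 713.6, 602.9, 649.5 and 690.5 CPM in KO. The groups overlapped throughout, with a log2 fold change of 0.04 (95% interval -0.10 to 0.19, adjusted p = 0.890, edgeR). Thbs1 spread more between libraries than Thbs2, with coefficients of variation of 29.2% and 20.2% in controls and KO against 9.52% and 7.03%.

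Fn1 encodes fibronectin, the integrin ligand that organizes other matrix proteins (chromosome 1, 71585520 to 71653200, minus strand). It stood at 1000.6, 819.7, 841.7, 1387.7 and 987.3 CPM in controls and at 978.6, 940.2, 566.2, 1007.0 and 903.8 CPM in KO. As for Thbs1, control 4 was the highest and KO 3 the lowest library, and the rest of the groups overlapped. The log2 fold change was -0.20 (95% interval -0.55 to 0.16, adjusted p = 0.734, edgeR), at coefficients of variation of 22.6% in controls and 20.4% in KO. This fold change was -0.05 without control 4, -0.07 without KO 3 and -0.09 without both control 4 and KO 1. The library kits do not mark strand, so reads from overlapping antisense genes could not be told apart. In Thbs1, 208 bases or 3.43% of the exons overlap Gm29233 on the opposite strand, and in Fn1, 292 bases or 2.50% overlap Apol7d. Aspn shares 7 exon bases with Cenpp, which also spans Ogn without sharing exon bases with it and was at 0.746 CPM in controls and 0.630 CPM in KO.

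A few libraries held many of the extreme values. Control 4 was the highest control for 5 of the 10 genes and the lowest for Lum and Ogn. Its deviations from the mean log2 CPM of its group were 0.62 for Thbs1 and 0.49 for Fn1 against -0.41 for Lum and -0.37 for Ogn. KO 3 was the lowest KO library for 6 genes, with deviations of -0.61 for Fn1, -0.57 for Thbs1 and -0.41 for Fmod, while its Lum was the highest of the KO group. Control 2 was the lowest control for 7 genes and KO 1 the highest KO library for 6. The 10 genes thus did not shift as 1 block between libraries of the same group.

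**Figure D3:**
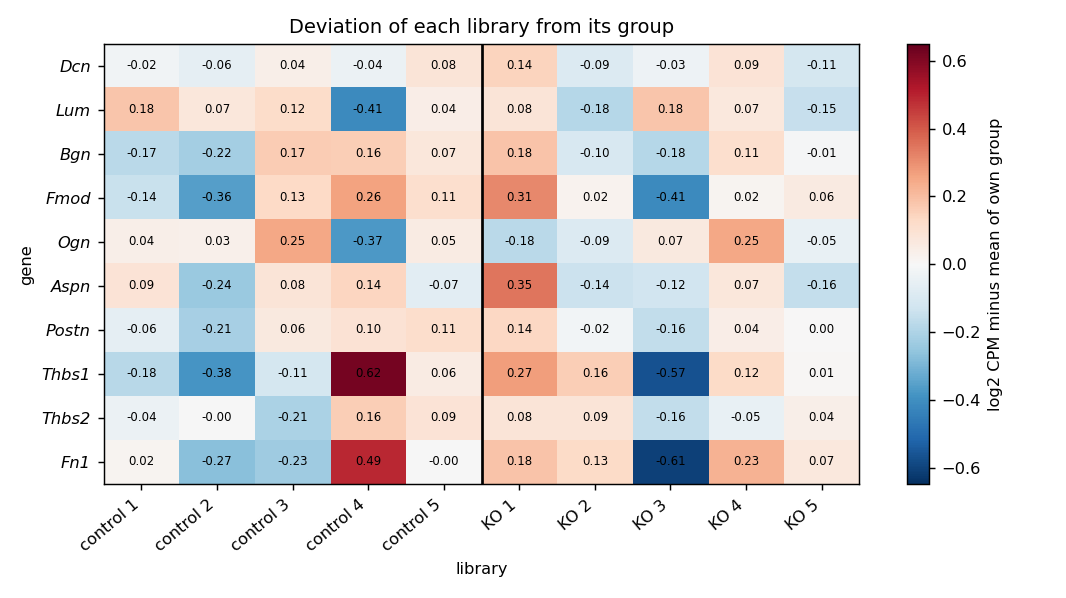
Log2 CPM of each gene in each library minus the mean of its own group (colour and printed value, log2 units), genes in rows and libraries in columns, controls left of the black line and KO right. Thbs1 and Fn1 are high in control 4, where Lum and Ogn are low, and Thbs1, Fn1 and Fmod are low in KO 3.

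To compare levels between genes, CPM was divided by the length in kilobases of each gene's merged exons in GENCODE M21 to give RPKM. In controls the order of mean RPKM was Bgn at 215.9, Postn at 201.4, Dcn at 142.4, Thbs2 at 93.3, Fn1 at 86.2, Thbs1 at 23.7, Ogn at 20.6, Lum at 16.7, Aspn at 7.26 and Fmod at 3.56. The control ranges of Bgn and Postn overlapped, as did those of Thbs2 and Fn1, of Thbs1 and Ogn, and of Ogn and Lum, although Ogn was above Lum in each of the 10 libraries. The other neighbours in the order did not overlap. KO means kept this order, with 202.2 RPKM for Bgn, 162.8 for Postn, 138.9 for Dcn, 96.2 for Thbs2, 75.2 for Fn1, 21.6 for Thbs1, 14.3 for Ogn, 9.74 for Lum, 5.79 for Aspn and 2.99 for Fmod. The genes that were called lower thus include 1 of the most abundant, Postn, and both Ogn and Lum from the lower part of the order.

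The rest of the SLRP family did not pass the test. Of 12 other family genes, 8 were tested and 0 were lower or higher at an adjusted p under 0.05 by edgeR, with 2 lower and 1 higher at an unadjusted p under 0.05 (7.46% and 4.43% of all genes tested), and the median log2 fold change was -0.12. DESeq2 and limma voom also called 0 of them. The most abundant were Prelp, which binds collagen and heparan sulfate, at 303.0 ± 18.9 in controls and 272.0 ± 22.6 CPM in KO (SD, n = 5 each), Tsku at 61.6 ± 2.67 and 68.1 ± 3.39 CPM, and Podn at 28.0 ± 5.72 and 25.2 ± 3.57 CPM. Their log2 fold changes were -0.16, 0.14 and -0.15, with adjusted p-values of 0.315, 0.179 and 0.748 (edgeR), and Tsku had the smallest p of the list. Prelp and Optc lie 115840 and 129255 bases from Fmod, and Optc was at 0.572 and 0.631 CPM.

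Of 28 other matricellular genes, 23 were tested. By edgeR 3 were lower and 0 higher (1.86% and 0.308% of all genes tested), with a median log2 fold change of -0.07. At an unadjusted p under 0.05, 5 were lower and 0 higher (7.46% and 4.43% of all genes tested). Sparcl1, an anti-adhesive relative of osteonectin, fell from 239.2 ± 20.3 to 188.7 ± 11.4 CPM (SD, n = 5 each; log2 fold change -0.34, adjusted p = 0.00995, edgeR). Ccn2, a connective tissue growth factor, fell from 20.2 ± 4.38 to 12.3 ± 1.54 CPM (-0.72, adjusted p = 0.0177, edgeR), and Tnxb, a tenascin that binds collagen, fell from 28.5 ± 1.57 to 22.0 ± 2.62 CPM (-0.38, adjusted p = 0.0238, edgeR). The most abundant of the list, Sparc, was at 3867.6 ± 352.8 and 3433.5 ± 227.0 CPM (-0.17, adjusted p = 0.309, edgeR), and Fbln2 was at 553.2 ± 61.8 and 528.9 ± 45.1 CPM (-0.06, adjusted p = 0.850, edgeR). The count of lower genes was 1 when control 5, KO 4 or KO 5 was left out. It was 2 when control 1, control 3 or KO 2 was left out, or control 4 and KO 1 together. Smoc2, which lies 260710 bases from Thbs2, had a log2 fold change of -0.21 (adjusted p = 0.660, edgeR).

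All 25 binding partners and receptors of these proteins were tested. By edgeR 5 were lower and 0 higher (1.86% and 0.308% of all genes tested), with a median log2 fold change of -0.08. At an unadjusted p under 0.05, 10 were lower and 0 higher (7.46% and 4.43% of all genes tested). Itgb3, the integrin subunit that pairs with the alpha V chain to bind periostin, fibronectin and thrombospondin, fell from 30.9 ± 1.63 to 16.6 ± 2.11 CPM (SD, n = 5 each), or by 0.90 on the log2 scale (adjusted p = 7.5e-05, edgeR). The other 4 encode fibrillar collagen chains to which SLRPs bind. Col3a1 fell from 2629.9 ± 387.6 to 1896.0 ± 166.6 CPM (-0.47, adjusted p = 0.0182, edgeR) and Col5a1 from 543.8 ± 30.4 to 436.1 ± 23.4 CPM (-0.32, adjusted p = 0.00402, edgeR). Col1a1 and Col1a2 each fell by 0.38 on the log2 scale with an adjusted p of 0.0473 (edgeR). The count of lower genes was 3 with median-of-ratios size factors, 3 when control 1, control 3 or KO 3 was left out, and 2 when control 5, KO 2 or KO 5 was. It was 6 with DESeq2, with limma voom or without KO 1, and 7 without both control 4 and KO 1. Cd36, a thrombospondin receptor and fatty acid transporter that was the most abundant of the list, was at 4612.7 ± 257.5 and 4750.8 ± 183.0 CPM (0.04, adjusted p = 0.846, edgeR).

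Of 29 genes for enzymes that build or modify glycosaminoglycan chains, 27 were tested. By edgeR 1 was lower and 0 higher (1.86% and 0.308% of all genes tested), with a median log2 fold change of -0.09. At an unadjusted p under 0.05, 9 were lower and 0 higher (7.46% and 4.43% of all genes tested). The log2 fold change was below 0 for 21 genes and above 0 for 6. The summed level was 833.54 to 855.65 CPM in controls and 802.03 to 830.44 CPM in KO, without overlap. The lower gene was the sulfotransferase Chst7, at 1.13 ± 0.263 and 0.483 ± 0.204 CPM (SD, n = 5 each; log2 fold change -1.23, adjusted p = 0.0421, edgeR), which rests on 5 to 33 counts per library. No gene of this list was called when control 1, 3 or 5 or KO 1, 2, 3 or 4 was left out, and 2 were when control 4 was. With limma voom, and without both control 4 and KO 1, 2 were called. The most abundant were Chst15 at 91.8 ± 6.68 and 96.0 ± 3.74 CPM, Ugdh at 80.5 ± 13.1 and 83.1 ± 9.15 CPM, and Dse at 74.1 ± 2.16 and 68.0 ± 3.77 CPM. None of these passed the test, with adjusted p-values of 0.725, 0.928 and 0.254 (edgeR). Every KO library was below every control library for Dse, the epimerase that turns chondroitin into dermatan sulfate, as for 2.66% of all genes tested.

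**Figure D4:**
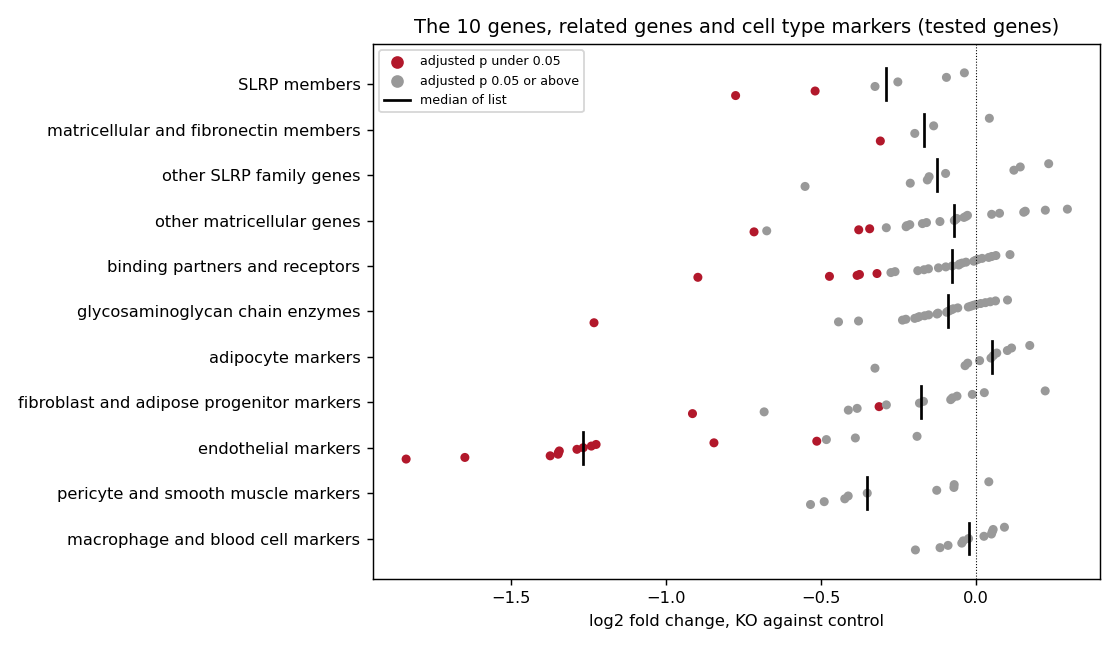
Log2 fold change in KO against control (x axis) of every tested gene of each list (rows), as points coloured red where the adjusted p is under 0.05, with the median of each list as a black bar. The endothelial markers lie furthest below 0, with a median of -1.27, and the adipocyte markers have a median of 0.05.

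Marker lists of the cell types that such a culture can hold were read from the same test. Of 10 adipocyte markers, all were tested and 0 were lower or higher (edgeR), with 3 higher and 0 lower at an unadjusted p under 0.05 (4.43% and 7.46% of all genes tested). Fabp4 was at 20805 and 22552 CPM and Adipoq at 1758.6 and 1820.4 CPM in controls and KO. The summed level of the list did not overlap between the groups and was higher in KO, at 36980 to 37983 CPM in controls and 38087 to 40292 CPM in KO. Most of this rise, from a mean of 37474 to 39260 CPM, lay in Fabp4, whose own values overlapped between the groups. Of the 10 markers, 7 had a log2 fold change above 0 and 3 below, with a median of 0.05. The fibroblast and adipose progenitor list covers cells that are known to make most of these matrix proteins. It had 2 of 14 genes lower and 0 higher (edgeR, beside 1.86% and 0.308% of all genes tested), with a median log2 fold change of -0.17. At an unadjusted p under 0.05, 5 of the 14 were lower and 0 higher, beside 7.46% and 4.43% of all genes tested. The genes past the adjusted limit were Cd34 (-0.91, adjusted p = 0.00722, edgeR) and Pdgfra (-0.31, adjusted p = 0.00878, edgeR). Dpp4 (-0.41, adjusted p = 0.612, edgeR) and Pi16 (-0.68, adjusted p = 0.254, edgeR) were under 1 CPM in both groups. The most abundant markers of this list were not called. They were Col15a1 (604.6 CPM in controls, -0.18, adjusted p = 0.555, edgeR), Ly6a (507.6 CPM, -0.06, adjusted p = 0.906) and Prrx1 (223.2 CPM, -0.01, adjusted p = 0.987). Of the 14 genes, 12 had a log2 fold change below 0 and 2 above. The summed level of this list was 1697.9 to 1987.1 CPM in controls and 1552.5 to 1743.5 CPM in KO.

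Endothelial markers were lower for 12 of 15 genes and higher for 0 (edgeR), beside 1.86% and 0.308% of all genes tested. Their summed level did not overlap between the groups, at 188.0 to 227.6 CPM in controls and 86.3 to 124.1 CPM in KO. Of 11 pericyte and smooth muscle markers, 9 were tested and 0 called (edgeR), with 5 lower at an unadjusted p under 0.05 (7.46% of all genes tested). The median log2 fold change of this list was -0.35, with 8 genes below 0 and 1 above. For 2 of them every KO library was below every control library, as for 2.66% of all genes tested. The sums of 175.7 to 218.3 and 148.5 to 183.2 CPM overlapped. Rgs5 and Cnn1 were under 1 CPM in both groups and were not tested. Their means in controls and KO were 0.700 and 0.279 CPM for Rgs5 and 0.221 and 0.222 CPM for Cnn1. Of 13 macrophage and blood cell markers, 11 were tested and 0 called (edgeR, none at an unadjusted p under 0.05), with overlapping sums of 1459.2 to 2247.5 and 1287.5 to 2138.4 CPM and Cd3e at 0 to 2 counts. The mesothelial and Schwann cell lists, with 2 of 5 and 5 of 5 genes tested, had 0 called (edgeR). At an unadjusted p under 0.05, 0 and 1 were higher, beside 4.43% of all genes tested. The part of these cell types in the lower Lum, Ogn and Postn was not tested.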

How the data were processed

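Gene expression was measured by RNA-seq in 5 control and 5 KO libraries, grouped by genotype in the labels. A figure legend of the study gives fewer samples per group for this experiment than the deposited table holds, and every library of the table was used. The authors made libraries with the SMARTer v4 Ultra Low Input and Nextera XT kits, which do not mark strand. STAR aligned the read pairs to GRCm38.p6, featureCounts assigned fragments to Ensembl genes, and the authors deposited the raw counts, neither normalized nor filtered. Genes with low counts were left out here by filterByExpr (minimum count 10) in edgeR 4.0.16 (R 4.3.3). TMM scaling was followed by a quasi-likelihood test of KO against control, and p-values were adjusted by the Benjamini-Hochberg method over the 14270 genes tested, with a limit of 0.05. Log2 CPM used a prior count of 2, and 95% intervals used the test's degrees of freedom. Exact permutation tests were 2-sided. The scripts were tested on simulated data.

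Coordinates and exon lengths come from GENCODE M21 (GRCm38). The gene identifiers of the deposited table carry later version numbers, so lengths approximate those counted. The 10 genes, their lists and the tests were chosen with earlier results of these data known. Named genes are the 10 genes, Fam20c, genes past the limit in each related list, the 3 most abundant of each, the gene of smallest p where none passed, genes overlapping or neighbouring the 10, and marker genes at the highest level or near 0. Alternatives were median-of-ratios size factors, no filter or at least 50 counts in 5 libraries, DESeq2 1.42.0, limma 3.58.1 voom with quality weights, a replicate block, each library left out in turn, and control 4 and KO 1 left out together.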

Additional observations from a re-analysis of the deposited data

Results flagged for a closer look

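Lum in control 4 stood apart from its group, at 30.4 CPM against 41.6 to 45.8 CPM in the other controls. Its gap to the nearest control was 0.728 of the range of the group, above Dixon's 95% critical value of 0.71 for 5 samples. Fn1 in KO 3 was at 566.2 CPM against 903.8 to 1007.0 CPM in the other KO libraries, with a gap of 0.766 of the range. Over the 22 groups examined, chance alone would give about 1.1 such values. Control 4 also lay apart on the first principal component of all genes, and KO 3 did not.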

How the results depend on the processing

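Lum remained lower in KO under all 17 alternatives, at log2 fold changes of -0.88 to -0.72, and Dcn, Bgn, Fmod and Fn1 passed the limit in none of them. Leaving out 1 library at a time gave 1 to 4 of the 10 genes lower, 164 to 323 genes lower and 19 to 119 higher over the whole table (edgeR), the lowest without KO 2 and control 5 and the highest of the latter without control 4. The number of genes higher was 125 with DESeq2, 111 with limma voom, 21 with the replicate block and 145 without control 4 and KO 1, against 44. With each library omitted, the log2 fold change of Thbs2 ran from -0.0012 (without control 3, where its sign was reversed) to 0.0888, and that of Thbs1 from -0.225 to 0.0563 (without control 4, where its sign was reversed). Over the 10 genes and 17 alternatives, 151 values kept their direction and side of the limit, 15 lost the call of Ogn or Postn, 2 gained that of Aspn and 2 reversed. The cause was not tested.

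With the replicate number as a block, 1 of the 10 genes, Lum, was lower, and Ogn and Postn had adjusted p-values of 0.0731 and 0.0952 (edgeR). The block also left 3 of the binding partners and receptors and 1 of the other matricellular genes lower. The labels do not say whether the numbers pair the samples. Deviations of same-numbered libraries correlated at -0.251 to 0.263 and only number 3 matched best with itself. KO 3 was also the best match of controls 1 and 2, and correlations over so few libraries cannot decide the pairing. At 168 to 297 counts for Fmod and 238 to 388 for Aspn, precision is lower than for the abundant genes.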
